A study of Mus musculus with 18 samples.

Results

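Neutrophils of the spleen were compared between female NZBWF1/J mice aged 14 weeks and the same strain aged 20 weeks, 6 mice at each age, by RNA sequencing with 1 library per mouse. The comparison takes 12 of the 18 libraries of the series, chosen by the age in the titles, and 10104 of its 17941 gene symbols, those with enough counts to be tested. Libraries from 6 mice aged 26 weeks served only to estimate the spread between mice and are not described. NZBWF1/J mice are F1 hybrids that spontaneously get lupus, and the submitters present the ages as stages of it. Every mouse was female and untreated, so both groups carry the strain's disease background, and age is the factor the labels give as differing. The cells were sorted as live (DAPI negative) singlets that stained for CD11b, Ly6G and Ly6B and were intermediate for Ly6C. The labels describe the libraries as biological replicates and give no date, cage or sequencing run per mouse.

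Neutrophils are made in the bone marrow, where precursors fill their granules in sequence, the primary granules with proteases, then the secondary granules with proteins such as lactoferrin and lipocalin, and later the tertiary granules and secretory vesicles with gelatinase and surface receptors. Transcription of granule cargo largely stops as the cell matures, while receptors, cytokine genes and survival regulators are expressed by mature cells. In NZBWF1 mice, autoantibodies and kidney disease develop with age, and the spleen holds the B cells and plasma cells that make those antibodies. Immediate early genes are a set of transcription factors and feedback inhibitors that cells switch on within minutes of a stimulus, including the handling of a tissue.

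The 12 libraries held 8835688 to 12462682 counts and 8119 to 12708 genes with a count. Replicate 3 of 20 weeks stood apart, with 8119 genes, a position of 230 on the first principal component (-39 to 54 in the other 11 libraries) and a median correlation of 0.756 with the other libraries of its age (0.828 to 0.844 for those). Without it, the median change of secondary granule genes was -1.06 and that of immediate early genes 1.46, values to set beside those given below. All 8 neutrophil markers examined were counted well enough to be tested. Of 11 lists of markers of other cells, those of B cells, plasma cells, monocytes and macrophages, dendritic cells and eosinophils had higher summed CPM at 20 weeks and that of T cells lower. As a mean of log2 CPM over the tested markers, the B cell, T cell, monocyte and dendritic cell lists did not pass (adjusted exact permutation p of 0.0545 to 0.209). The values of those lists are given after the gene groups, and their part in the results was not tested.

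Between 14 and 20 weeks 1030 of 10104 genes changed (10.2%), 498 higher (4.93%) and 532 lower (5.27%) at 20 weeks. Each call is an adjusted p under 0.05 from edgeR's quasi-likelihood test. Of the called genes, 318 of those that rose and 272 of those that fell did so by over 1 on the log2 scale, and 108 and 58 by over 2. The median size of a called change was 1.08. The median change over all tested genes was -0.02. In bulk libraries such as these, fewer cells of a type and less RNA per cell cannot be told apart. In 697 of the tested genes (6.9%) the values of the 6 and 6 libraries did not overlap, and 541 of these were called. Without replicate 3 of 20 weeks 1139 genes were called, 903 of them among the 1030. Without replicate 4 of 14 weeks, 326 genes were higher and 376 lower. Of the 1030 calls, 611 were lost in none of the 12 refits without 1 library. DESeq2 called 1727 genes (14.9% of the 11559 it tested), among them all 1030 in the same direction, with 943 higher and 784 lower.

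**Figure D1:**
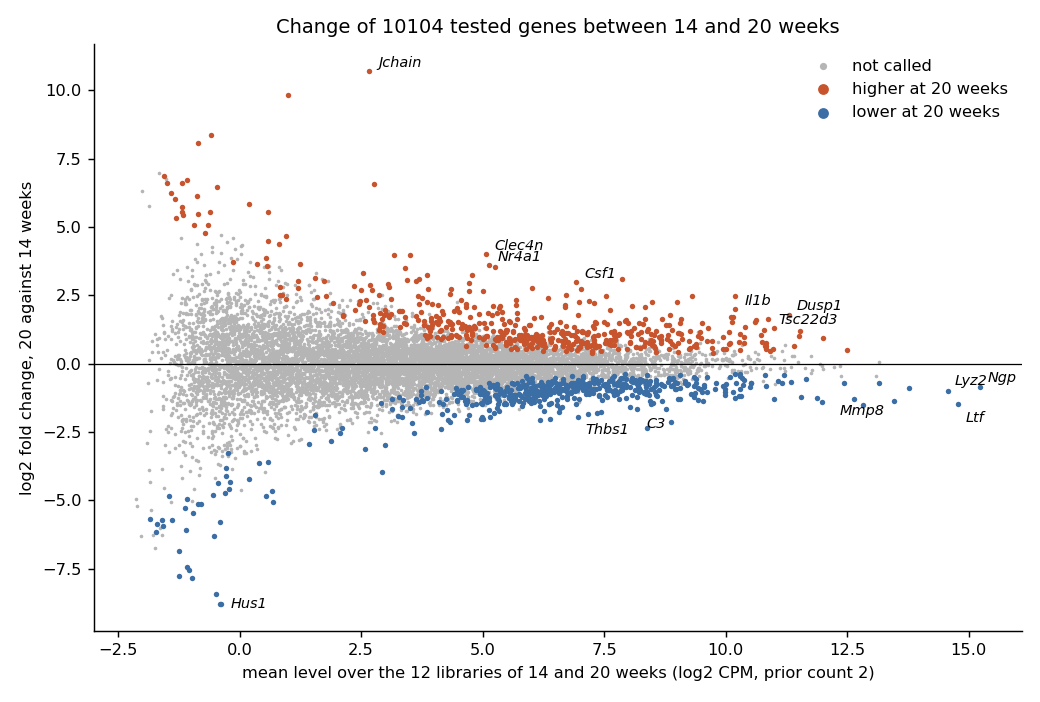
Each point is 1 of 10104 tested genes, with its mean level over the 12 libraries (log2 CPM) on the horizontal axis and its fitted log2 fold change, 20 against 14 weeks, on the vertical axis. Red and blue points are the 498 genes called higher and the 532 called lower, grey points the rest. The called genes with the highest log2 CPM, Ngp, Ltf and Lyz2, lie below 0, and the largest changes belong to genes of low CPM.

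The genes that fell held a large part of the counts. They took 38.8 ± 3.86% of a library's counts at 14 weeks and 21.6 ± 5.34% at 20 weeks (mean ± SD, n = 6). Genes that rose took 8.7 ± 1.79% and 20.4 ± 3.89%. These shares belong to genes chosen for their change and are a description. Of the 100 genes with the most counts, 26 rose and 28 fell, against 4.93% and 5.27% of all tested genes. The 10 with the most counts at 14 weeks (Ngp, Ltf, Lyz2, Anxa1, Mmp8, Lcn2, Mmp9, S100a9, Lcp1 and Tmsb4x) took 23.3 ± 3.08% of scaled counts at 14 weeks and 11.7 ± 3.48% at 20 weeks, with 8 of them lower and 0 higher. The 10 with the most counts at 20 weeks share 8 genes with that set and hold H2-D1 and Fth1 in place of Lcn2 and S100a9. Those 10 took 21.8 ± 2.79% of scaled counts at 14 weeks and 12.1 ± 3.03% at 20 weeks, with 6 lower and 2 higher. Each set was chosen by its counts at 1 age, so its shares and calls are a description. The other shares in this paragraph are of unscaled counts. Counting each library's own 10 genes with the most counts, the share was 19.1% to 26.6% at 14 weeks and 9.76% to 17.7% at 20 weeks, ranges that do not overlap (exact permutation test, two-sided, adjusted p = 0.00758 over 7 library measures).

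For each gene named below, 3 values in CPM are given for each age: the lowest, the median and the highest of its 6 libraries. CPM is the gene's count scaled for the depth of its library. A change is the fitted log2 fold change ± SE, and p is adjusted over all genes tested. CPM does not correct for gene length, so levels are compared between ages and not between genes.

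Among genes at a mean of at least 4 on the log2 CPM scale whose libraries do not overlap, Clec4n had the largest rise. It encodes Dectin-2, a lectin receptor for fungal mannans, and read 3.9, 6.78 and 16.4 CPM at 14 weeks and 99.4, 149 and 180.3 CPM at 20 weeks (change 4.02 ± 0.44). Its lowest 20 week library was replicate 1. Nr4a1, an orphan nuclear receptor of the immediate early class, read 3.35, 11.7 and 19.4 CPM at 14 weeks and 85.7, 128 and 229 CPM at 20 weeks (3.61 ± 0.47, adjusted p = 0.000176). Pmaip1, which encodes the death-promoting BCL-2 family protein Noxa, read 0, 12.6 and 35.4 CPM at 14 weeks and 98.4, 206 and 250.5 CPM at 20 weeks (3.54 ± 0.75, adjusted p = 0.00471). It was absent from 1 library of 14 weeks, replicate 1. Cd274, the checkpoint ligand PD-L1, read 6.95, 7.6 and 17.6 CPM at 14 weeks and 58.3, 79.8 and 126 CPM at 20 weeks (3.26 ± 0.51). The growth factor gene Csf1, which supports macrophages, read 25.2, 44.5 and 79.5 CPM at 14 weeks and 248, 289.9 and 632 CPM at 20 weeks (2.99 ± 0.43). Replicate 2 of 14 weeks held the highest Cd274 value of its age. On GRCm38, Nr4a1 spans 101254269 to 101274795 on chromosome 15 and Clec4n 123229843 to 123247021 on chromosome 6.

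The other 10 of the 15 largest rises were a mixed set. Gpr35, an orphan G protein-coupled receptor gene, read 4.8, 8.67 and 22.7 CPM at 14 weeks and 41.2, 79.2 and 112 CPM at 20 weeks (2.94 ± 0.37). Cd244, a SLAM family receptor, read 4.79, 27.9 and 58.7 CPM at 14 weeks and 129.8, 201 and 269 CPM at 20 weeks (2.77 ± 0.51). Tagln2, whose product binds actin, read 34.5, 50.4 and 87.8 CPM at 14 weeks and 174, 324 and 632 CPM at 20 weeks (2.75 ± 0.36). Lack of overlap between ages was a condition for this set and is not a result. In all 3 genes, replicate 1 was the lowest 20 week library. Ccrl2, an atypical receptor that binds chemerin, read 19.1, 37.6 and 99.9 CPM at 14 weeks and 159, 275 and 451 CPM at 20 weeks (2.51 ± 0.46). Metrnl encodes a secreted factor and read 45.8, 79 and 129.7 CPM at 14 weeks and 321, 431 and 688 CPM at 20 weeks (2.48 ± 0.36). Socs3, the feedback inhibitor of cytokine receptors, read 29, 64.9 and 88.2 CPM at 14 weeks and 208, 266 and 463 CPM at 20 weeks (2.27 ± 0.33). Jund, an AP-1 subunit, read 118, 166 and 235 CPM at 14 weeks and 480.5, 791 and 1154 CPM at 20 weeks (2.26 ± 0.31). Fam105a (2.67 ± 0.66), Prr5l (2.39 ± 0.45) and Atf3, a stress-induced transcription factor (2.35 ± 0.64), complete the set. The call of Atf3 was lost in 2 of 12 refits without 1 library (highest adjusted p 0.0535, without replicate 6 of 14 weeks).

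The largest falls began with Thbs1, the gene of the matrix glycoprotein thrombospondin 1, at 684, 801 and 1078 CPM at 14 weeks and 38.5, 178 and 266 CPM at 20 weeks (-2.36 ± 0.37). C3, the central complement component, read 928, 1035 and 1093 CPM at 14 weeks and 155, 212 and 385 CPM at 20 weeks (-2.13 ± 0.23). The 6 younger libraries lay close together, and every library of 20 weeks was well below them, replicate 1 the highest. Nt5e encodes CD73, the enzyme that makes adenosine outside the cell, and read 126, 177 and 214 CPM at 14 weeks and 6.9, 40.5 and 88.1 CPM at 20 weeks (-2.06 ± 0.44). Chil5, a chitinase-like gene, read 136, 192 and 225 CPM at 14 weeks and 19.8, 29.1 and 102 CPM at 20 weeks (-2.03 ± 0.34). Pnpla8, a phospholipase gene, read 164, 262 and 325 CPM at 14 weeks and 38.5, 60.5 and 97 CPM at 20 weeks (-1.95 ± 0.27). As for the rises, lack of overlap between ages was a condition for this set. The lowest library of 20 weeks was replicate 4 for Nt5e and Chil5 and replicate 3 for Pnpla8. Nrp1, the neuropilin 1 receptor (-1.96 ± 0.37), Dach1, a transcriptional repressor (-1.95 ± 0.40), Nhsl2 (-1.82 ± 0.19), Lhfpl2 (-2.03 ± 0.34) and the F-box gene Fbxo10 (-2.07 ± 0.46) kept their calls in all 12 refits without 1 library. Atrn (-2.13 ± 0.66) lost its call in 9 of those refits, the phosphatase gene Cdc14a (-2.07 ± 0.66) in 10, the motor protein gene Myo5a (-1.88 ± 0.52) in 4 and Vps41, part of a lysosome tethering complex (-1.85 ± 0.48), in 1. Their highest adjusted p was 0.0955 without replicate 4 of 20 weeks, 0.0981 without replicate 4 of 14 weeks, 0.0607 without replicate 4 of 20 weeks and 0.0537 without replicate 1 of 14 weeks.

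**Figure D2:**
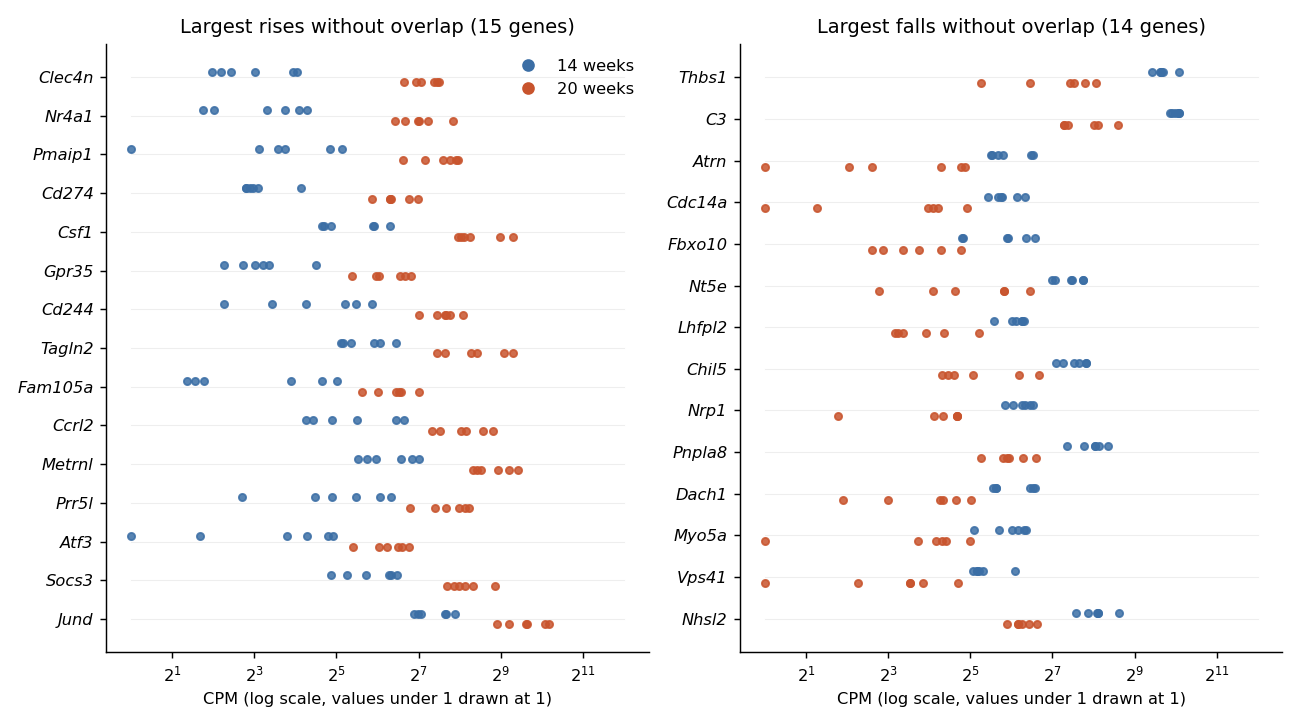
CPM on a log2 axis in each of the 12 libraries for the 15 largest rises (left) and 14 of the 15 largest falls (right) among called genes that do not overlap between ages. Blue points are the 6 libraries of 14 weeks and red points the 6 of 20 weeks, and values under 1 CPM are drawn at 1. Clec4n and Nr4a1 show the widest gaps among the rises, and C3 a tight group of 14 week libraries above the spread of 20 weeks.

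Secondary granule genes were lower at 20 weeks. Of 16 tested members 10 fell (62.5%, against 5.27% of all genes), 0 rose and 6 were not called, with a median change of -1.07. Ltf, the lactoferrin gene, read 36750, 52180 and 64460 CPM at 14 weeks and 7377, 18170 and 35290 CPM at 20 weeks (-1.47 ± 0.29, adjusted p = 0.00344). Its highest 20 week library, replicate 1, was just under the lowest of 14 weeks, replicate 2. Mmp8, the neutrophil collagenase, read 16340, 18060 and 22780 CPM at 14 weeks and 3523, 8168 and 9928 CPM at 20 weeks (-1.36 ± 0.20), and Lcn2, lipocalin 2, read 10170, 12600 and 15240 CPM at 14 weeks and 2644, 4442 and 6510 CPM at 20 weeks (-1.53 ± 0.26). Both separated the ages fully. Cd177, a surface protein carried in these granules, read 4816, 6340 and 7541 CPM at 14 weeks and 1208, 2424 and 4278 CPM at 20 weeks (-1.23 ± 0.27). Ngp, the neutrophilic granule protein gene, read 37490, 56240 and 73410 CPM at 14 weeks and 16750, 29830 and 43470 CPM at 20 weeks (-0.87 ± 0.24). Its ranges overlapped, and its call was lost in 6 of 12 refits without 1 library (highest adjusted p 0.0685, without replicate 6 of 14 weeks). Olfm4 (olfactomedin 4) changed by -1.13 ± 0.21, Cybb by -1.28 ± 0.22, Anxa3 (annexin A3) by -1.30 ± 0.25 and the chitinase-like gene Chil1 by -0.55 ± 0.11. Camp, the cathelicidin gene, read 2134, 2670 and 4397 CPM at 14 weeks and 906, 1371 and 2990 CPM at 20 weeks (-0.73 ± 0.37, adjusted p = 0.25), and Hp, the haptoglobin gene, read 4286, 5617 and 6667 CPM at 14 weeks and 3871, 5164 and 6248 CPM at 20 weeks (-0.10 ± 0.13, adjusted p = 0.733). Neither passed the test, and the Hp ranges largely coincide. Averaged over the 16 genes, the log2 CPM was 10.96 to 11.43 at 14 weeks and 9.66 to 10.85 at 20 weeks.

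The RefSeq promoter table (GRCm38.p6) holds 12 of these 16 genes. The letters TTGCNNAA, which belong to the sites that C/EBP factors bind, were searched on both strands in the 250 bases before each gene's start and were found in 4 of the 12 (33.3%), against 7.56% of the 7244 tested genes with a promoter in the table. The kappa B site of NF-kB was found as often, in 4 other genes of the 12 (33.3%, against 8.55%), and the AP-1 letters TGANTCA in 1 (8.33%, against 4.25%). C/EBP factors drive granule genes during granulopoiesis, and a match in this window is a description of its letters. The upstream sequences of the 3 genes with the largest falls among those 4 are shown because these genes fell with no overlap between ages, with the match in capitals.
Ltf: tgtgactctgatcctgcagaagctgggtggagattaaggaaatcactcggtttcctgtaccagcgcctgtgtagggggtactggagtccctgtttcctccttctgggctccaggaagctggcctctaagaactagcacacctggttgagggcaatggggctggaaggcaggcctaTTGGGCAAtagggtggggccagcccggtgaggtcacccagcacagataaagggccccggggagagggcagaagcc
Mmp8: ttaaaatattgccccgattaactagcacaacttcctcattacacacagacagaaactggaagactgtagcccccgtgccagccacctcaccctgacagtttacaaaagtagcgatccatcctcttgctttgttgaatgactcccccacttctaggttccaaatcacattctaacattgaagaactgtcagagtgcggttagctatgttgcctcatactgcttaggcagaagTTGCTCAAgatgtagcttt
Lcn2: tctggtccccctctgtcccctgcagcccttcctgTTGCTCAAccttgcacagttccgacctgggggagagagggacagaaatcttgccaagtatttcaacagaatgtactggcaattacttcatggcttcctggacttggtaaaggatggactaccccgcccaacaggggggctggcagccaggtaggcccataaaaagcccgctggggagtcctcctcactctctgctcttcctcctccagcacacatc
The match in Ltf begins 75 bases before the start of the gene, that in Mmp8 19 bases and that in Lcn2 216 bases. They lie within chr9:111019042-111019291 (plus strand), chr9:7558179-7558428 (plus strand) and chr2:32387740-32387989 (minus strand) and end at the start of the RefSeq gene. By the GENCODE models, which can begin farther upstream, the Lcn2 window lies inside the gene's span and the Ltf window overlaps its first bases.

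Tertiary granule and secretory vesicle genes also fell, 8 of 12 (66.7%, against 5.27% of all genes), with 1 higher and a median of -0.68. Lyz2, the lysozyme gene, read 31260, 35440 and 38640 CPM at 14 weeks and 11750, 15720 and 27690 CPM at 20 weeks (-0.98 ± 0.20). Anxa1, the gene of the anti-inflammatory protein annexin A1, read 15170, 20500 and 23390 CPM at 14 weeks and 6373, 10020 and 15040 CPM at 20 weeks (-0.89 ± 0.20), and the gelatinase gene Mmp9 read 9901, 11200 and 13570 CPM at 14 weeks and 6447, 6869 and 9331 CPM at 20 weeks (-0.69 ± 0.15). In all 3 the highest library of 20 weeks stayed under the lowest of 14 weeks. Retnlg, a resistin-like gene, changed by -1.39 ± 0.31, Mmp25 by -0.92 ± 0.21 and Itgb2, the integrin beta 2 subunit, by -0.67 ± 0.12. Itgam, the CD11b gene of the sorting gate, read 1638, 2072 and 2128 CPM at 14 weeks and 737, 1209 and 1327 CPM at 20 weeks (-0.84 ± 0.19). Cd14, a co-receptor for bacterial lipopolysaccharide, was the member that rose, at 558, 865 and 1142 CPM at 14 weeks and 1058, 1373 and 1940 CPM at 20 weeks (0.77 ± 0.23), a call lost in 6 of 12 refits (highest adjusted p 0.0886, without replicate 6 of 14 weeks). Of 5 tested primary granule genes 0 were called by edgeR, 0 had an unadjusted p under 0.05 and DESeq2 called 0, with a median of 0.41. Their main cargo genes Mpo, Elane, Prtn3 and Ctsg had too few counts to be tested.

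**Figure D3:**
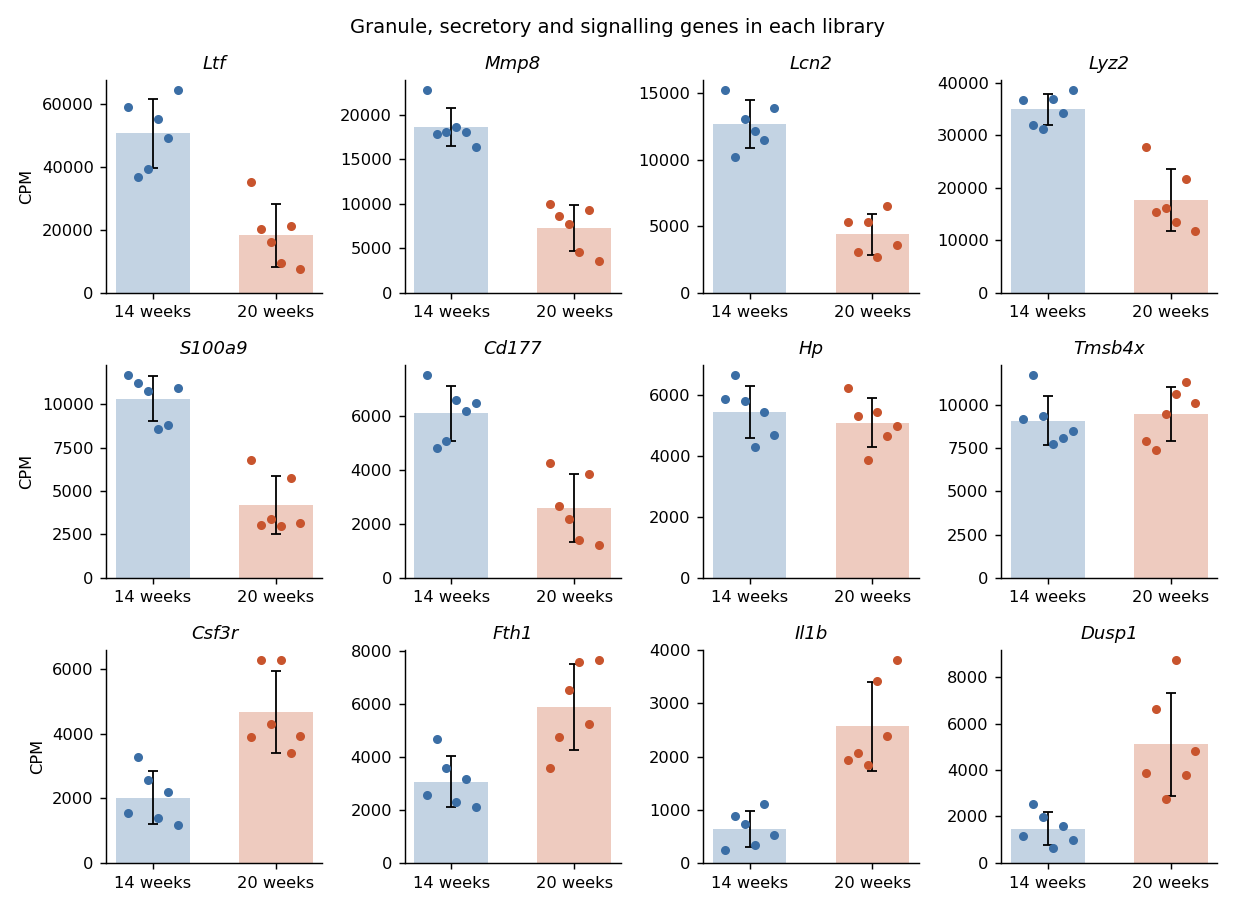
CPM of 12 genes in each library, with the bar at the mean and the error bar at ± 1 SD of the 6 libraries of an age (blue 14 weeks, red 20 weeks, points in replicate order). Ltf, Mmp8, Lcn2, Lyz2, S100a9 and Cd177 are lower in all 6 older mice, Hp and Tmsb4x overlap, and Csf3r, Il1b and Dusp1 are higher in all 6.

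Effector systems of the cell changed in part. Of 9 genes of the NADPH oxidase, the enzyme that makes superoxide, 3 fell (33.3%, against 5.27% of all genes) and 0 rose. Cybb, its catalytic subunit, read 2527, 3354 and 4017 CPM at 14 weeks and 768, 1316 and 2082 CPM at 20 weeks, and Ncf1, its p47 organiser, read 1364, 2000 and 2207 CPM at 14 weeks and 515, 784 and 1284 CPM at 20 weeks (-1.19 ± 0.19). Each was lower in all 6 older mice. The proton channel gene Hvcn1 changed by -0.91 ± 0.28, a call lost in 8 of 12 refits (highest adjusted p 0.112, without replicate 1 of 14 weeks). Ncf4 (-0.28 ± 0.14) and Cyba (0.14 ± 0.20) did not pass the test. The calprotectin genes S100a9 and S100a8 were the 2 of 6 S100 genes that fell (33.3%, against 5.27% of all genes). S100a9 read 8599, 10860 and 11700 CPM at 14 weeks and 2980, 3268 and 6785 CPM at 20 weeks (-1.31 ± 0.34), and S100a8 read 4082, 4789 and 5499 CPM at 14 weeks and 1275, 1857 and 2985 CPM at 20 weeks (-1.20 ± 0.38). Both were below the younger range in all 6 older mice, but the S100a8 call was lost in 10 of 12 refits (highest adjusted p 0.106, without replicate 4 of 20 weeks). Padi4, the enzyme that citrullinates histones in extracellular traps, read 771, 832 and 1184 CPM at 14 weeks and 301, 477 and 982 CPM at 20 weeks (-0.80 ± 0.25). Its replicate 1 of 20 weeks lay inside the younger range, far from the other 5, and the call was lost in 11 of 12 refits (highest adjusted p 0.133, without replicate 1 of 14 weeks).

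Immediate early genes were higher at 20 weeks. Of 29 tested members 20 rose (69%, against 4.93% of all genes), 1 fell and 8 were not called, and the median change was 1.42. Averaged over the 29 genes, log2 CPM was 4.5 to 5.72 at 14 weeks and 5.88 to 7.4 at 20 weeks, ranges that do not overlap. Dusp1, a phosphatase that switches off MAP kinases, read 649, 1375 and 2525 CPM at 14 weeks and 2767, 4351 and 8731 CPM at 20 weeks (1.79 ± 0.38, adjusted p = 0.00488). Its highest value was in replicate 4 of 20 weeks, and no older library reached down to the younger ones. Junb, an AP-1 subunit, read 151, 228 and 347 CPM at 14 weeks and 711, 1284 and 1451 CPM at 20 weeks (2.25 ± 0.27). Egr1, a zinc finger factor, read 0.312, 3.49 and 8.15 CPM at 14 weeks and 20.7, 47 and 129.8 CPM at 20 weeks (3.99 ± 0.65, adjusted p = 0.000929). Both were separate between ages, with replicate 4 the highest of 20 weeks. Ppp1r15a, the GADD34 gene that restores translation after stress, read 0, 6.33 and 12.7 CPM at 14 weeks and 26.1, 62.5 and 88 CPM at 20 weeks (3.26 ± 0.66). Zfp36 encodes tristetraprolin, which shortens the life of cytokine messages, and read 273, 323 and 371 CPM at 14 weeks and 375, 740.5 and 1136 CPM at 20 weeks (1.23 ± 0.22). Ier5 read 88.5, 114 and 159 CPM at 14 weeks and 232, 312 and 466 CPM at 20 weeks (1.44 ± 0.21). These 3 did not overlap between ages either.

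Fos, the AP-1 partner of Jun, read 149.9, 257 and 487 CPM at 14 weeks and 385, 952 and 1448 CPM at 20 weeks (1.77 ± 0.36), and 1 older library, replicate 3, lay inside the younger range. Fosb read 0, 0 and 1.25 CPM at 14 weeks and 0.986, 10.8 and 22.6 CPM at 20 weeks (5.55 ± 1.16), with replicate 1 of 20 weeks inside a younger range that is close to 0. The antiproliferative gene Btg2 changed by 0.76 ± 0.16, Btg1 by 1.33 ± 0.27, the quiescence factor Klf2 by 1.19 ± 0.24, Klf6 by 0.80 ± 0.16, Dusp5 by 2.13 ± 0.45, Csrnp1 by 1.52 ± 0.33 and Zfp36l2 by 1.20 ± 0.29. Gadd45a, a growth arrest gene, was the member that fell, at -0.63 ± 0.17, a call lost in 1 of 12 refits (adjusted p = 0.068 without replicate 1 of 14 weeks). Jun itself (1.42 ± 0.69), Ier2 (0.35 ± 0.16), Ier3 (0.43 ± 0.22) and Klf4 (0.17 ± 1.47) did not pass the test. The older libraries were not equal in this response. Replicate 4 held the highest value of its age for 11 of the 20 genes that rose, and replicates 1 and 3 the lowest for 9 and 8.

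Promoters of 26 of the 29 early genes are in the RefSeq table. The CREB and ATF site TGACGTCA was found within 250 bases before the start in 3 of the 26 (11.5%), against 2.89% of all tested genes with a promoter. Its first part TGACG, which overlaps it, was found in 13 of 26 (50%), against 29.2% of those genes, 29.1% of those that rose and 21% of those that fell. Both were searched on both strands. Dusp1 and Ppp1r15a hold the full site and Nr4a1 the first part 4 times, written CGTCA where it lies on the other strand. They are shown because all 3 genes rose with no overlap between ages.
Dusp1: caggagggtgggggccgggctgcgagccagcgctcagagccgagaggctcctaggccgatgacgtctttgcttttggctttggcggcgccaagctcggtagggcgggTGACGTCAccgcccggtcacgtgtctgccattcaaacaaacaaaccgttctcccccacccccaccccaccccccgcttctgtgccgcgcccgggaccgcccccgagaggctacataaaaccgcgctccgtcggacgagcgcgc
Ppp1r15a: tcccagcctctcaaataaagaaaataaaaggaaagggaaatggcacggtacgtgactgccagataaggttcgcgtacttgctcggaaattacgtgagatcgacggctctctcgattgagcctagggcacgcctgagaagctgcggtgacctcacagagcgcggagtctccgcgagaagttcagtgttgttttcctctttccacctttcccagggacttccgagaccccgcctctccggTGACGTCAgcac
Nr4a1: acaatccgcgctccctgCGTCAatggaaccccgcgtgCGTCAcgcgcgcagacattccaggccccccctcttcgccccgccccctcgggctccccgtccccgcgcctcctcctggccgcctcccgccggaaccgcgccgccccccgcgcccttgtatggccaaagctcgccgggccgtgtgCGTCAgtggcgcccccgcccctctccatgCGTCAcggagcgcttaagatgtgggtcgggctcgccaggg
Capitals mark the matches. They begin 143 bases before the start in Dusp1, 12 bases in Ppp1r15a, and 233, 213, 69 and 40 bases in Nr4a1. The windows are chr17:26508473-26508722 and chr7:45526269-45526518 on the minus strand and chr15:101266596-101266845 on the plus strand, the last inside the gene's span in the GENCODE models, which begin at an earlier start. Of the other sites searched, the kappa B site was found in 5 of the 26 early gene promoters (19.2%), in 12.2% of the genes that rose, 11.1% of those that fell and 8.55% of all tested genes. The CArG box of serum response factor was found in 2 of the 26 (7.69%, against 1.05%), the AP-1 letters in 1 (3.85%, against 4.25%) and the C/EBP letters in 2 (7.69%, against 7.56%).

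Genes that glucocorticoids are known to induce rose in 5 of 11 cases (45.5%, against 4.93% of all genes), with 0 lower and a median of 0.81. Tsc22d3, the glucocorticoid-induced leucine zipper, read 511, 1029 and 1685 CPM at 14 weeks and 2418, 3691 and 4211 CPM at 20 weeks (1.65 ± 0.29), with no overlap between ages. Sgk1, a kinase gene, read 129, 141 and 188 CPM at 14 weeks and 186, 331 and 379.9 CPM at 20 weeks (1.05 ± 0.18), with replicate 3 of 20 weeks inside the younger range. The others were Dusp1, Zbtb16 (1.49 ± 0.44, lost in 7 of 12 refits, highest adjusted p 0.0814 without replicate 4 of 14 weeks) and the thioredoxin inhibitor Txnip (0.93 ± 0.26, lost in 6, highest adjusted p 0.0741 without replicate 6 of 20 weeks). Fkbp5 (-0.28 ± 0.41, adjusted p = 0.76) and Per1 (0.81 ± 0.56, adjusted p = 0.425), further textbook targets, did not pass the test, and their ranges overlapped widely. Of 8 circadian clock genes 0 were called by edgeR, 0 had an unadjusted p under 0.05 and DESeq2 called 0.

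Cytokine and chemokine genes were higher in 6 of 18 cases (33.3%, against 4.93% of all genes) and lower in 1, with a median of 0.89. Il1b, the interleukin 1 beta gene, read 239, 627 and 1114 CPM at 14 weeks and 1837, 2224 and 3814 CPM at 20 weeks (2.01 ± 0.35, adjusted p = 0.00127), with all 6 older mice above the younger ones. Cxcl2, which attracts neutrophils, read 0.832, 6.51 and 15.9 CPM at 14 weeks and 11.5, 31.6 and 88.5 CPM at 20 weeks (2.47 ± 0.64). Its top library, replicate 6, stood well above the rest, and without it the adjusted p was 0.0582. Ccl3 read 0, 3.87 and 5.46 CPM at 14 weeks and 7.68, 16.2 and 25.1 CPM at 20 weeks (2.32 ± 0.65, lost in 3 of 12 refits, highest adjusted p 0.066 without replicate 4 of 14 weeks), and Ccl6 changed by 1.30 ± 0.32. Csf1 is described above, and Tgfb1 read 54.2, 95.5 and 134 CPM at 14 weeks and 98.9, 224 and 344 CPM at 20 weeks (1.16 ± 0.30), a call lost without replicate 6 of 20 weeks (adjusted p = 0.0565). Tnfsf13b, the B cell survival factor BAFF, was the member that fell (-0.50 ± 0.16), and that call was lost in 10 of 12 refits (highest adjusted p 0.113, without replicate 4 of 20 weeks). Il6, Il10, Il12a and Il23a had too few counts to be tested.

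NF-kB genes rose in 5 of 25 cases (20%, against 4.93% of all genes) with 0 lower. They were Icam1, the adhesion ligand, at 0, 6.03 and 10.7 CPM at 14 weeks and 34.2, 42.7 and 74.3 CPM at 20 weeks (3.09 ± 0.59), the subunit gene Nfkb2 (1.22 ± 0.30) and 3 genes of nuclear regulators, Bcl3 (0.95 ± 0.22), Nfkbid (1.55 ± 0.41) and Nfkbiz (0.87 ± 0.22). Nfkbid lost its call in 1 of 12 refits (adjusted p = 0.0517, without replicate 4 of 14 weeks). The classical inhibitor Nfkbia read 281, 483 and 718 CPM at 14 weeks and 449.8, 513 and 671 CPM at 20 weeks (0.16 ± 0.21, adjusted p = 0.726) and did not pass. In the JAK-STAT list, 1 of 23 rose (4.35%), Socs3. Suppressive effectors moved in both directions, 4 higher (30.8%) and 2 lower (15.4%) of 13. Besides Cd274 and Tgfb1, Entpd1, the CD39 enzyme that removes extracellular ATP, read 58.2, 113 and 159 CPM at 14 weeks and 171, 365 and 373 CPM at 20 weeks (1.52 ± 0.30), while Nt5e, which acts after it in the same path, fell. Arg2 (0.66 ± 0.20) and Lgals3 (-0.71 ± 0.22) lost their calls in 7 and 10 of 12 refits (highest adjusted p 0.104 without replicate 4 of 20 weeks, and 0.0996 without replicate 4 of 20 weeks).

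Receptors for cytokines were higher in 8 of 23 cases (34.8%, against 4.93% of all genes) and lower in 1. Csf3r, the receptor of the neutrophil growth factor G-CSF, read 1183, 1869 and 3288 CPM at 14 weeks and 3418, 4118 and 6285 CPM at 20 weeks (1.21 ± 0.30, adjusted p = 0.012), with every older library above the younger ones. Il1rap, the shared chain of the interleukin 1 receptors, read 57.8, 73.1 and 104 CPM at 14 weeks and 133, 385 and 479 CPM at 20 weeks (2.22 ± 0.31). Il13ra1 read 50.7, 91.1 and 171 CPM at 14 weeks and 172, 409.7 and 585 CPM at 20 weeks (1.97 ± 0.37), and Ifngr1, the interferon gamma receptor chain, read 95.5, 158 and 186 CPM at 14 weeks and 199, 305 and 441 CPM at 20 weeks (1.08 ± 0.22). None of these overlapped. Il6ra changed by 0.80 ± 0.18, Tgfbr1 by 1.29 ± 0.35, Tnfrsf1a by 0.65 ± 0.16 and Tnfrsf1b by 1.53 ± 0.43 (lost in 4 of 12 refits, highest adjusted p 0.0648 without replicate 4 of 14 weeks). Il18rap, a chain of the interleukin 18 receptor, was the one that fell, at 268, 281 and 290.2 CPM at 14 weeks and 129, 174 and 222 CPM at 20 weeks (-0.69 ± 0.16).

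Chemoattractant receptors divided. Of 10 tested, 4 rose (40%) and 3 fell (30%), against 4.93% and 5.27% of all genes. C5ar1, the complement C5a receptor, read 1710, 2223 and 2582 CPM at 14 weeks and 2401, 3535 and 3997 CPM at 20 weeks (0.65 ± 0.15), with replicate 1 of 20 weeks inside the younger range. Ptafr, the receptor for platelet-activating factor, read 139, 208 and 294 CPM at 14 weeks and 291, 516 and 613 CPM at 20 weeks (1.17 ± 0.24), and Ccrl2 is given above. Cxcr1, an interleukin 8 receptor gene, had 0 counts in all 6 libraries of 14 weeks and 246 counts over 5 libraries of 20 weeks, at least 82.1-fold higher with a floor of 3 counts over the 6 younger libraries. The formyl peptide receptor genes Fpr1 (-0.72 ± 0.17) and Fpr2 (-0.84 ± 0.25) and the leukotriene B4 receptor gene Ltb4r1 (-0.78 ± 0.19) fell. Fpr2 lost its call in 8 of 12 refits (highest adjusted p 0.0755, without replicate 4 of 20 weeks). Cxcr2, the chemokine receptor used for release from the marrow, read 1175, 1744 and 2516 CPM at 14 weeks and 1409, 1739 and 1991 CPM at 20 weeks (-0.11 ± 0.19, adjusted p = 0.795) and overlapped fully, and Cxcr4 changed by 0.12 ± 0.19, which did not pass.

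Lectin receptors divided as well, 4 of 11 higher (36.4%) and 3 lower (27.3%). Besides Clec4n, Clec7a, which encodes the beta-glucan receptor Dectin-1, read 144, 303 and 602 CPM at 14 weeks and 538, 964 and 1482 CPM at 20 weeks (1.64 ± 0.36), with replicate 1 of 20 weeks inside the younger range. Clec4a1 (2.52 ± 0.56) and Clec4a3 (2.09 ± 0.46) rose, while their neighbour Clec4a2, an inhibitory receptor, read 420.4, 463 and 505 CPM at 14 weeks and 174, 199 and 328 CPM at 20 weeks (-1.03 ± 0.19) and was lower in all 6 older mice. Reads shared within the Clec4a family could be split between these members. Clec5a (-0.81 ± 0.17) and Clec12a (-0.65 ± 0.17) fell, the second with its call lost in 3 of 12 refits (highest adjusted p 0.0558, without replicate 4 of 20 weeks). Of 26 paired activating and inhibitory receptors 7 rose (26.9%) and 0 fell. Lair1, an inhibitory collagen receptor, read 0, 5.86 and 9.61 CPM at 14 weeks and 15.6, 50.6 and 61.6 CPM at 20 weeks (3.06 ± 0.63), Treml4 read 1.15, 6.5 and 9.23 CPM at 14 weeks and 34.1, 40.0 and 44.6 CPM at 20 weeks (2.72 ± 0.52) and the inhibitory receptor gene Cd300a read 290.1, 422 and 520.4 CPM at 14 weeks and 787, 889.9 and 1237 CPM at 20 weeks (1.21 ± 0.23). All 3 were separate between ages. Sirpb1a (1.81 ± 0.38), Sirpb1b (1.48 ± 0.32) and Sirpb1c (2.08 ± 0.39) rose too, but they are near-identical copies and their separate values are uncertain. Siglece changed by 0.58 ± 0.16, lost in 4 of 12 refits (highest adjusted p 0.0572, without replicate 4 of 20 weeks). Of 5 Fc receptor genes tested 0 were called by edgeR, 0 had an unadjusted p under 0.05 and DESeq2 called 0.

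Adhesion molecules were higher in 6 and lower in 6 of 24 cases (25% each, against 4.93% and 5.27% of all genes). Itgax, the CD11c integrin chain, read 0, 4.5 and 16.9 CPM at 14 weeks and 31.2, 43.5 and 77.3 CPM at 20 weeks (3.02 ± 0.71), and Itga5, a fibronectin receptor chain, read 5.3, 8.47 and 13.6 CPM at 14 weeks and 11.8, 52.8 and 84.8 CPM at 20 weeks (2.54 ± 0.62). Itgb7 (1.46 ± 0.37) rose as well. Ceacam1 read 579.8, 672 and 776 CPM at 14 weeks and 153, 265 and 367 CPM at 20 weeks (-1.38 ± 0.21) and was lower in all 6 older mice. Talin, which links integrins to actin, is encoded by Tln1, which fell (-1.09 ± 0.26). Of 31 actin cytoskeleton genes 8 fell (25.8%) and 2 rose (6.45%). Flna, the filamin A crosslinker, read 1483, 1697 and 1927 CPM at 14 weeks and 745, 823 and 1217 CPM at 20 weeks (-0.91 ± 0.16), and the myosin heavy chain gene Myh9 read 341, 425 and 494 CPM at 14 weeks and 101, 172 and 321 CPM at 20 weeks (-1.14 ± 0.30). Both were lower in all 6 older mice. Vim (-0.65 ± 0.11), Lasp1 (-0.88 ± 0.15), Capg (-1.06 ± 0.26), Actr3 (-0.70 ± 0.15) and Arpc5 (-0.42 ± 0.10) fell, and Marcks (1.65 ± 0.29) rose with Tagln2. Tmsb4x, the actin-sequestering thymosin gene, read 7751, 8829 and 11730 CPM at 14 weeks and 7382, 9791 and 11300 CPM at 20 weeks (0.06 ± 0.21, adjusted p = 0.917), and its sign turned negative (-0.12) after correction for gene length. The complement list divided, with 3 of 10 higher (30%) and 4 lower (40%), against 4.93% and 5.27% of all genes. C5ar1 and Itgax were among those that rose. The decay accelerator gene Cd55 fell with C3, Itgam and Itgb2, at 99.5, 152 and 218 CPM at 14 weeks and 21.2, 51.3 and 93.3 CPM at 20 weeks (-1.49 ± 0.31). Of 7 coagulation and thrombospondin genes 1 rose (14.3%) and 3 fell (42.9%). Thbd (thrombomodulin, 2.67 ± 0.53) rose, and F5 (factor V, -1.54 ± 0.38), Anxa5 (-0.72 ± 0.16) and Thbs1 fell.

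Of 12 BCL-2 family genes 4 rose (33.3%, against 4.93% of all genes) and 0 fell. They lie on both sides of the survival balance. Pmaip1 and Bcl2l11, the gene of the death-promoting protein Bim, at 2.99, 7.6 and 15.9 CPM at 14 weeks and 7.97, 40.8 and 62.9 CPM at 20 weeks (2.25 ± 0.52), rose beside Mcl1, which protects neutrophils, at 646, 778 and 1134 CPM at 14 weeks and 1074, 1364 and 1805 CPM at 20 weeks (0.71 ± 0.20, lost in 7 of 12 refits, highest adjusted p 0.074 without replicate 6 of 20 weeks). Bax, a pore-forming member, changed by 1.17 ± 0.35 and lost its call in 10 (highest adjusted p 0.0893, without replicate 4 of 14 weeks).

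Interferon targets did not share a direction. Of 38 type I interferon targets 1 rose (2.63%) and 3 fell (7.89%), shares near those of all genes (4.93% and 5.27%). Samd9l read 271, 336 and 472 CPM at 14 weeks and 32.3, 99.4 and 165 CPM at 20 weeks (-1.77 ± 0.34), Sp100 changed by -1.05 ± 0.23, and Oasl2 rose by 0.85 ± 0.26 (lost in 8 of 12 refits, highest adjusted p 0.101 without replicate 4 of 20 weeks). Ifit1 (-0.02 ± 0.41), Ifit3 (-0.05 ± 0.36), Rsad2 (0.16 ± 0.32) and Isg15 (0.26 ± 0.27) did not pass. Of 16 MHC class I presentation genes 3 rose (18.8%) and 0 fell. They were the class I heavy chain gene H2-D1 at 3481, 5201 and 5919 CPM at 14 weeks and 6135, 6751 and 8099 CPM at 20 weeks (0.49 ± 0.14, lost in 5 of 12 refits, highest adjusted p 0.0797 without replicate 4 of 14 weeks), the peptide editor Tapbp (0.76 ± 0.18) and the immunoproteasome subunit Psmb8 (0.67 ± 0.17). Among Toll-like receptors and adaptors 4 of 19 rose (21.1%) and 1 fell (5.26%). Unc93b1, which carries nucleic acid receptors to endosomes, read 244, 329.7 and 377 CPM at 14 weeks and 496, 638 and 788 CPM at 20 weeks (1.05 ± 0.21), the adaptor gene Myd88 read 289.8, 348 and 415 CPM at 14 weeks and 492, 618 and 779 CPM at 20 weeks (0.83 ± 0.17), and Tlr4 read 49.8, 63.7 and 85.4 CPM at 14 weeks and 87.3, 163 and 213 CPM at 20 weeks (1.19 ± 0.27). None overlapped, and the endosomal receptor genes Tlr7 (-0.63 ± 0.58), Tlr8 (-0.37 ± 0.42) and Tlr13 (0.03 ± 0.28) did not pass.

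Lysosomal genes were higher in 8 of 27 cases (29.6%, against 4.93% of all genes) and lower in 1, with a median of 0.53. The protease gene Ctss read 9.37, 19 and 38.8 CPM at 14 weeks and 57.4, 87.2 and 125 CPM at 20 weeks (2.10 ± 0.38), Ctsa read 124, 237 and 411 CPM at 14 weeks and 555, 730.4 and 1079 CPM at 20 weeks (1.62 ± 0.32) and the membrane protein gene Cd68 read 94.8, 124 and 156 CPM at 14 weeks and 202, 256 and 368 CPM at 20 weeks (1.11 ± 0.22). In each, all 6 older mice were above the younger ones. Scarb2 (1.56 ± 0.37), Tfeb, the transcription factor of lysosome genes (0.76 ± 0.18), and Ctsb (0.53 ± 0.13) rose, and the progranulin gene Grn fell (-0.72 ± 0.13). Cd68 is also in the monocyte and macrophage list and Ctss in the class II list. Endoplasmic reticulum stress genes rose in 5 of 25 cases (20%) with 0 lower. Hspa5, the BiP chaperone, read 161, 238 and 254 CPM at 14 weeks and 308, 443 and 518 CPM at 20 weeks (0.91 ± 0.22), and Xbp1 read 128, 157 and 184 CPM at 14 weeks and 235, 334 and 367 CPM at 20 weeks (1.06 ± 0.15). Both were separate between ages, and Xbp1 is also a plasma cell marker. The disulfide isomerase gene P4hb (0.90 ± 0.22) rose with them.

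Of 15 iron handling genes 4 rose (26.7%, against 4.93% of all genes), 3 fell (20%, against 5.27%) and 8 were not called, with a median of 0.1. The ferritin chains that store iron were higher, with Fth1 at 2103, 2864 and 4650 CPM at 14 weeks and 3561, 5881 and 7640 CPM at 20 weeks (0.94 ± 0.24) and Ftl1 at 1448, 2044 and 3166 CPM at 14 weeks and 3136, 4123 and 5530 CPM at 20 weeks (1.02 ± 0.22), and 1 older library of each, replicate 1, lay inside the younger range. Ferritin genes have processed pseudogenes, and the handling of shared reads is not stated. The exporter gene Slc40a1 read 1013, 1183 and 1381 CPM at 14 weeks and 1311, 2560 and 3439 CPM at 20 weeks (1.07 ± 0.25) and the reductase gene Steap4 read 38.9, 123 and 306 CPM at 14 weeks and 263, 668 and 887 CPM at 20 weeks (2.10 ± 0.42). The iron-binding secreted proteins Ltf and Lcn2 fell, and so did Ncoa4, the receptor that sends ferritin to the lysosome, at 147, 159 and 195 CPM at 14 weeks and 61.8, 75 and 116 CPM at 20 weeks (-1.05 ± 0.18).

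Glycolysis genes were lower in 5 of 20 cases (25%, against 5.27% of all genes) and higher in 1. Gapdh read 1226, 1358 and 1676 CPM at 14 weeks and 613, 762 and 864 CPM at 20 weeks (-0.93 ± 0.14), and Gpi1, at the entry of the path, read 901, 953 and 1187 CPM at 14 weeks and 379, 515 and 694 CPM at 20 weeks (-0.92 ± 0.15). Pgam1 (-0.83 ± 0.15), Pgk1 (-1.05 ± 0.20) and Eno1 (-0.48 ± 0.12) fell, and the glucose transporter gene Slc2a1 rose (1.34 ± 0.35, lost in 2 of 12 refits, highest adjusted p 0.0528 without replicate 4 of 14 weeks). Of 10 glycogen genes 3 fell (30%) and 0 rose. Pygl, the phosphorylase that opens glycogen, read 2590, 2934 and 3139 CPM at 14 weeks and 1610, 1813 and 1984 CPM at 20 weeks (-0.69 ± 0.13), and Gyg, the glycogenin primer, read 132, 205 and 227 CPM at 14 weeks and 45, 75.4 and 125 CPM at 20 weeks (-1.27 ± 0.22). No library of 20 weeks reached the younger range in either. Of 7 mitochondrially encoded protein genes 3 fell (42.9%, against 5.27% of all genes) and 0 rose. They were mt-Cytb (-1.25 ± 0.27), mt-Nd4 (-1.24 ± 0.35) and mt-Co1 (-1.01 ± 0.28). The last 2 lost their calls in 4 of 12 refits each (highest adjusted p 0.0683 without replicate 4 of 14 weeks, and 0.0658 without replicate 4 of 20 weeks). Of 74 nuclear-encoded respiratory chain genes 2 rose (2.7%, against 4.93% of all genes) and 1 fell (1.35%, against 5.27%). Of 75 cytosolic ribosome genes 0 were called by edgeR, 6 had an unadjusted p under 0.05 and DESeq2 called 2. The medians of these 2 lists were -0.01 and 0.15. In the cell cycle list 2 of 29 rose and 2 fell (6.9% each), shares near those of all genes. Ccnd2 (2.74 ± 0.50) and Cdkn1a (2.45 ± 0.78) rose. Ccnd3 (-0.71 ± 0.14) fell, as did Top2a, which had 56 counts over 3 libraries of 14 weeks and 0 at 20 weeks. Cdkn1a lost its call in 8 of 12 refits (highest adjusted p 0.174, without replicate 4 of 20 weeks) and Top2a in 1 (adjusted p = 0.0549, without replicate 6 of 14 weeks). The marker of proliferation Mki67 (-0.37 ± 1.11) did not pass.

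The shares called in the remaining lists stand beside 4.93% higher and 5.27% lower over all genes. Of 21 antioxidant genes 2 rose and 2 fell (9.52% each), with the manganese superoxide dismutase gene Sod2 at 0.94 ± 0.27, Prdx6 at -0.51 ± 0.14 and Gclm at -0.80 ± 0.24. Of 25 granulopoiesis transcription factors 2 rose (8%; Ets2, 1.14 ± 0.33, and Zeb2, 1.44 ± 0.41) and 4 fell (16%), among them Klf5 (-0.84 ± 0.22) and Max (-1.36 ± 0.34). Of 9 interferon gamma inducible GTPases 2 rose (22.2%; Irgm2, 1.17 ± 0.28, and Gbp9, 1.32 ± 0.37), of 14 nucleic acid sensors 2 rose (14.3%; Irf3, 1.21 ± 0.36, and Mb21d1, the cGAS gene), and of 13 inflammasome genes 2 rose (15.4%; Il1b and Mefv, the pyrin gene, 1.47 ± 0.44). In eicosanoid synthesis 3 of 14 rose (21.4%), Ltc4s, Ptges3 (1.49 ± 0.29) and Pla2g7 (1.54 ± 0.33), and Mgst1 fell (7.14%; -0.82 ± 0.23). Of 13 heat shock chaperones Hspa8 rose (0.58 ± 0.15) and Hsp90ab1 fell (-1.04 ± 0.16). Of 18 histone genes 2 rose (11.1%) and 1 fell (5.56%), and of 8 class II and costimulation genes 1 rose (12.5%), Ctss. With 1 library left out, the calls of Sod2, Prdx6, Gclm, Ets2, Zeb2, Gbp9, Irf3, Mb21d1, Mefv and Mgst1 were lost in 5 to 9 of 12 refits, with highest adjusted p values of 0.0657 to 0.1.

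**Figure D4:**
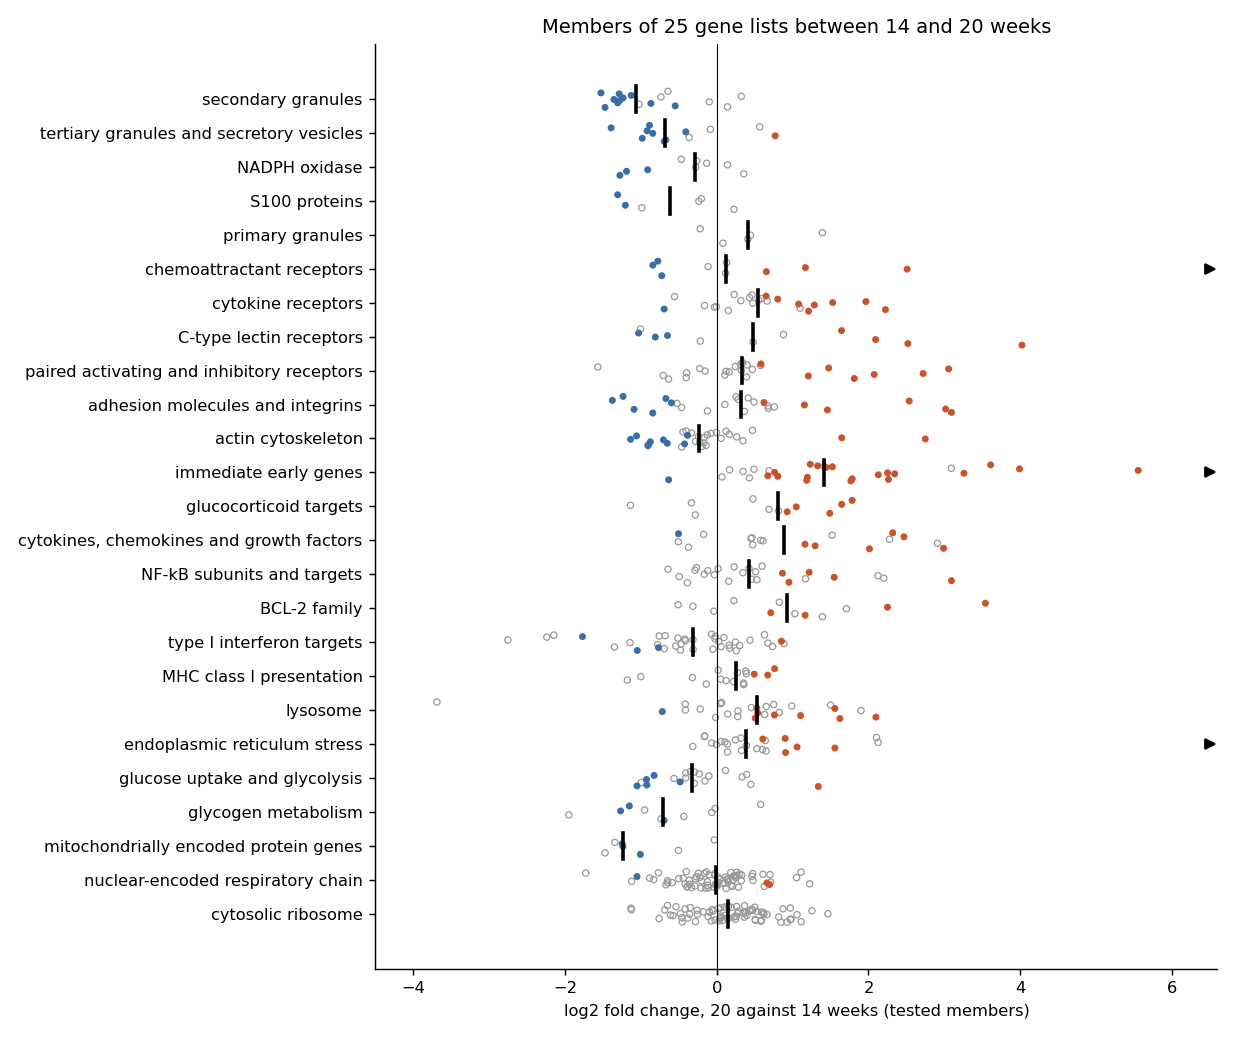
Log2 fold change, 20 against 14 weeks, of the tested members of 25 gene lists. Each circle is a gene, filled red or blue where it was called higher or lower, and the black bar is the median of the list. Arrowheads at the right edge are Cxcr1, Egr2 and Hyou1, whose fitted values lie off the axis. The secondary granule median is -1.07 and that of the immediate early genes 1.42, and the cytosolic ribosome list has 0 called genes.

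Of the sorting antigens, Ly6g, the gate's defining neutrophil antigen, read 909.7, 1285 and 1419 CPM at 14 weeks and 276, 426 and 792 CPM at 20 weeks (-1.37 ± 0.30), and Ly6c2 read 487, 535 and 566 CPM at 14 weeks and 110.5, 131 and 283 CPM at 20 weeks (-1.66 ± 0.28). Both were lower in all 6 older mice. Ly6c1 (-0.49 ± 0.78) did not pass, Ly6e read 233, 371 and 539.7 CPM at 14 weeks and 484, 855 and 1098 CPM at 20 weeks (1.11 ± 0.27), and Ly6c1 and Ly6c2 share much of their sequence, so reads could be split between them. Of the 8 neutrophil markers 6 fell (75%, against 5.27% of all genes), 1 rose (Csf3r, 12.5%, against 4.93%) and 1 was not called (Cxcr2). The falls are not a separate result. Mmp9, Retnlg and Itgam are also in the tertiary granule list, S100a8 and S100a9 in the S100 list, and Ly6g is given above. 

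Markers of other cells moved with age. Summed over 11 B cell markers, CPM was 49.5 to 199 at 14 weeks and 244 to 1878 at 20 weeks (adjusted exact p = 0.00595, permutation test, two-sided, adjusted over 11 lists). Most of it was Ighm, at 45.5, 88.4 and 179.5 CPM at 14 weeks and 174, 886 and 1824 CPM at 20 weeks (3.10 ± 0.53), while Ms4a1, Cd79b and Ighd were each at 0 in 4 or 5 of the 6 younger and 3 of the 6 older libraries. Of 5 tested B cell markers 2 rose (40%, against 4.93% of all genes) and 0 fell, with a median of 2.5. The other was Cd22, an inhibitory receptor of B cells, at 0, 3.06 and 17.2 CPM at 14 weeks and 2.78, 39.5 and 63.6 CPM at 20 weeks (2.90 ± 0.81), with 5 of the 6 older libraries above all younger ones and the call lost in 4 of 12 refits (highest adjusted p 0.0657, without replicate 4 of 14 weeks). The plasma cell sum was 129 to 186 and 349 to 3201 CPM (adjusted exact p = 0.00595), and all 3 tested plasma cell markers rose, with a median of 6.58. Jchain, which joins secreted antibody, read 0, 0.0858 and 0.512 CPM at 14 weeks and 2.78, 270.2 and 906 CPM at 20 weeks (10.72 ± 1.67), and all 6 older mice were above the younger ones. Igkc, the kappa light chain constant gene, read 0, 1.22 and 12.4 CPM at 14 weeks and 3.37, 26.5 and 1394 CPM at 20 weeks (6.58 ± 1.74, lost in 2 of 12 refits, highest adjusted p 0.0918 without replicate 6 of 20 weeks), and Xbp1 is given above. At 14 weeks the median of Xbp1 was 157 CPM and that of the whole plasma cell sum 160 CPM. Among the 10 plasma cell markers, 2 (Sdc1 and Derl3) were at 0 in all libraries of 14 weeks and 0 were at 0 in all libraries of 20 weeks. Several were still at 0 in many older libraries, Tnfrsf17 in 5 of 6, Sdc1 and Derl3 in 4, and Prdm1 and Iglc1 in 3. Immunoglobulin genes and Jchain together took 0.00962% to 0.0224% of counts at 14 weeks and 0.0225% to 0.622% at 20 weeks (adjusted exact p = 0.00758), with replicates 2 and 5 of 20 weeks the lowest at 0.0225% and 0.0601%. The p was up to 0.0606 without 1 library.

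The monocyte and macrophage sum was 1823 to 2462 CPM at 14 weeks and 2168 to 4773 CPM at 20 weeks (adjusted exact p = 0.0159). Its members Slc40a1, Csf1r (1.31 ± 0.33), Adgre1, the F4/80 gene (1.72 ± 0.34), and Cd68 rose, and Ly6c2 fell. Of its defining genes, C1qa, C1qb and Vcam1 never exceeded 1 CPM in any of the 12 libraries, and Mertk, Ccr2 and Cx3cr1 had a median of 0 at both ages. Dendritic cell markers summed to 0.172 to 33.9 and 31.8 to 172 CPM (adjusted exact p = 0.00952), with Itgax the largest member by median, and with Flt3, Xcr1 and Siglech under 1 CPM throughout. Eosinophil markers summed to 9.16 to 24.9 and 37.1 to 78.5 CPM (adjusted exact p = 0.00595), led by Siglecf and by Ccr3 at 0.0815, 3.32 and 7.21 CPM at 14 weeks and 10.3, 22.6 and 35.7 CPM at 20 weeks (2.69 ± 0.75, lost in 2 of 12 refits, highest adjusted p 0.0598 without replicate 6 of 20 weeks). Of 3 tested eosinophil markers Ccr3 was the 1 called. The third, Ear2, went the other way, at 2.91, 4.88 and 6.66 CPM at 14 weeks and 0.67, 1.13 and 4.27 CPM at 20 weeks. The granule protein gene Prg2, Il5ra and Ear6 were at 0 in all older libraries. T cell markers summed to 117 to 156 and 50 to 102 CPM (adjusted exact p = 0.00595), nearly all of it Cd3d, with Cd3e and Cd8a at 0 in all older libraries. Of 4 tested T cell markers 0 were called by edgeR, 2 had an unadjusted p under 0.05 and DESeq2 called 1. As a mean of log2 CPM over the tested markers, the adjusted exact p was 0.0747 for B cells, 0.209 for T cells, 0.0545 for monocytes and macrophages, 0.0545 for dendritic cells and 0.00649 for eosinophils and plasma cells. The sums of NK cell, basophil, erythroid, platelet and stromal markers did not pass (adjusted exact p of 0.667 to 0.803). With the immunoglobulin segments and all these markers left out before scaling, 1032 genes were called, 505 higher and 527 lower. That fit still held 10057 genes, and any RNA of other cells in those genes stayed in the counts. It therefore does not test the part of other cells.

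**Figure D5:**
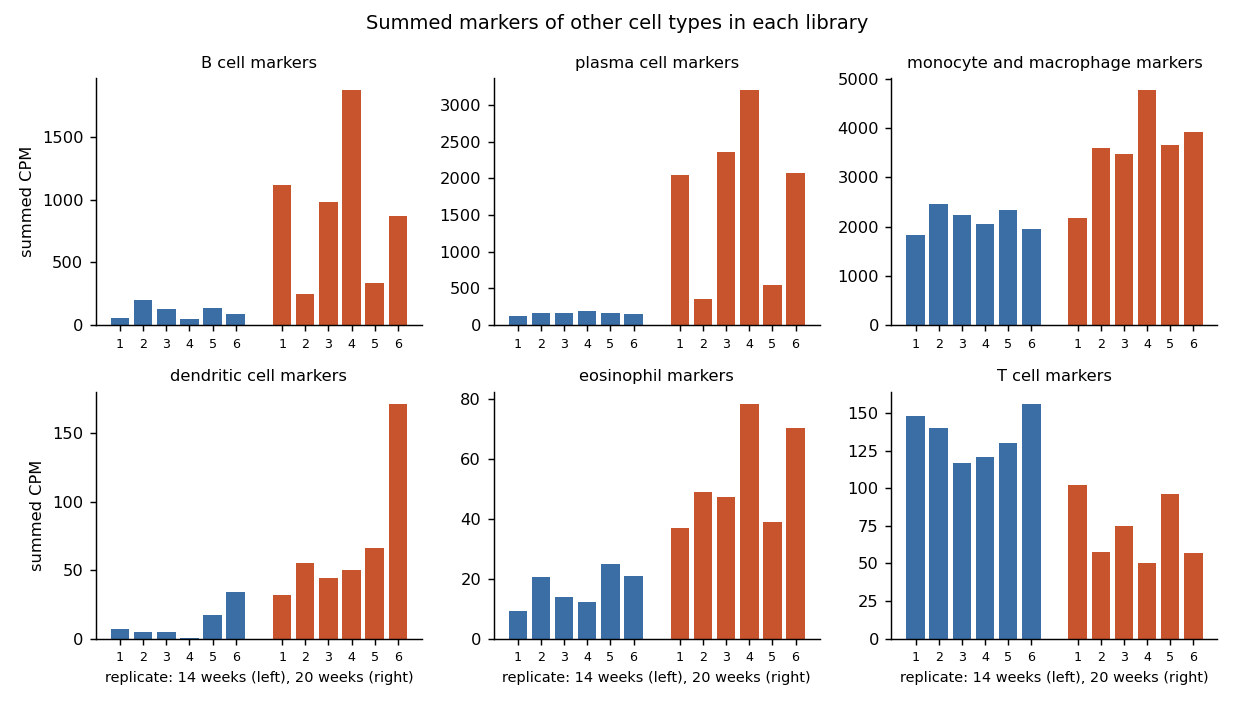
CPM summed over the markers of 6 other cell types in each library, 14 weeks in blue (replicates 1 to 6, left) and 20 weeks in red (right). B cell and plasma cell sums differ widely among the older mice, from 244 to 1878 and from 349 to 3201 CPM, and replicates 2 and 5 are the lowest of their age in both.

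The 6 mice of an age were not alike along these genes. Replicate 1 of 20 weeks held the lowest value of its age for 238 of the 498 genes that rose (47.8%) and the highest for 213 of the 532 that fell (40%). At 14 weeks, replicate 2 held the highest value for 213 of the genes that rose (42.8%) and the lowest for 188 of those that fell (35.3%), including 8 of the 10 secondary granule genes. At 20 weeks replicates 4 and 6 held the lowest values of all 10 of those granule genes, 4 and 6 each. These are counts over genes chosen for their change and carry no test. Leaving out replicate 1 of 20 weeks raised the number of called genes to 1263, and leaving out any single library of 14 weeks lowered it, to between 702 and 984.

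At the extremes, 6 of the called genes had 0 counts in every library of 14 weeks and 13 in every library of 20 weeks. Among the first were Cxcr1, Egr2 (at least 72.8-fold higher) and Ltc4s, the leukotriene C4 synthase gene (at least 26.7-fold higher). Among the second were Top3a and Hus1, genes of DNA repair (at least 112-fold and 110-fold lower), and the thioesterase gene Acot11 (at least 92.5-fold lower). Each bound uses 3 counts over the 6 libraries of the empty age. All 3 of the genes lost at 20 weeks had counts in 5 of 6 younger libraries, 278 to 336 in total, and their loss rests on low counts.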

How the data were processed

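RNA was sequenced from sorted spleen neutrophils, 1 library per mouse. The authors deposited a table of raw counts per gene symbol. Per the submitters' processing notes, Trimmomatic 0.32, STAR 2.4.2a, HTSeq 0.6.1 and DESeq2 1.12.3 were used with build GRCm38.p4; annotation and strand setting are stated nowhere in the labels, so overlapping and antisense genes cannot be told apart. From the deposited counts, 10104 genes kept by filterByExpr were tested with edgeR 4.0.16 (R 4.3.3) by quasi-likelihood with TMM factors, age as the only term and all 18 libraries in 1 fit, the 20 against 14 week contrast adjusted by Benjamini-Hochberg at 0.05 over all tested genes. CPM uses TMM-scaled library sizes. DESeq2 1.42.0 and limma 3.58.1 were alternatives, with other scalings, filters, length and GC curves and 1 library left out. Sums over markers and library measures were compared by two-sided exact permutation tests (smallest unadjusted p the design allows 0.00216). P-values set a difference against the spread between mice. In edgeR that spread came from all 18 libraries, with 1 value per gene for all ages. Self-tests used simulated counts. Named genes are those of a fixed rule: by fold change, 15 that rose and 15 that fell furthest of those called, with no overlap and a mean log2 CPM of 4 or more, leaving out receptor segments, Gm and Rik genes, pseudogenes and mitochondrial transcripts; up to 4 called members of each list by smallest p; the 10 most abundant genes of each age; and the sorting gate and neutrophil lists. Other genes named were added after their values were seen, and a few genes the rule names are not reported here. The members and lists were chosen with earlier results of these data known. Symbols were matched to gene models for position and length (16809 directly, 457 by synonym, 675 not matched), with promoters from RefSeq (GRCm38.p6).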

Additional observations from a re-analysis of the deposited data

Results flagged for a closer look

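Within each age, the highest and the lowest of the 6 libraries were compared with their neighbour for the values reported, in 490 sets of 6 libraries. A library was singled out where its gap to the nearest other exceeded Dixon's critical share of the whole range, which chance alone does in about 1 of 20 sets. This happened 38 times. Replicate 1 of 14 weeks stood high for platelet markers 3.23 CPM (nearest 0.519), Mmp8 22780 CPM (nearest 18600), Vps41 67.8 CPM (nearest 39.6), Irf3 19.7 CPM (nearest 12.5), Gpi1 1187 CPM (nearest 973), Ccnd3 1946 CPM (nearest 1513), Arpc5 2464 CPM (nearest 2077) and stood low for Hspa5 161 CPM (nearest 222), Ier3 19.6 CPM (nearest 35.1). Replicate 2 of 14 weeks stood high for Cd274 17.6 CPM (nearest 8.56), Gpr35 22.7 CPM (nearest 10.3), Ccnd2 22 CPM (nearest 9.37), Cd22 17.2 CPM (nearest 4.56) and stood low for Ly6g 909.7 CPM (nearest 1246), Fpr2 233 CPM (nearest 335). Replicate 3 of 14 weeks stood high for Thbs1 1078 CPM (nearest 828), Pgk1 115 CPM (nearest 92.1), Tlr7 50.2 CPM (nearest 33.8), Mki67 15.6 CPM (nearest 4.63). Replicate 5 of 14 weeks stood high for Clec4a1 8.65 CPM (nearest 3.58), Fosb 1.25 CPM (nearest 0.163). Replicate 6 of 14 weeks stood high for NK cell markers 11.2 CPM (nearest 0.577), Igkc 12.4 CPM (nearest 1.88). Replicate 1 of 20 weeks stood high for erythroid markers 8.3 CPM (nearest 1.87), Padi4 982 CPM (nearest 514), Ncf4 1713 CPM (nearest 1149) and stood low for C5ar1 2401 CPM (nearest 3420), Klf6 1061 CPM (nearest 1687). Replicate 3 of 20 weeks stood high for stromal and endothelial markers 37.9 CPM (nearest 12.6), Mmp9 9331 CPM (nearest 7082), Ets2 297 CPM (nearest 174). Replicate 4 of 20 weeks stood high for Cdkn1a 25.3 CPM (nearest 8.43). Replicate 6 of 20 weeks stood high for NK cell markers 15.6 CPM (nearest 0.492), dendritic cell markers 172 CPM (nearest 66.1), Cxcl2 88.5 CPM (nearest 39.3), Mki67 12.2 CPM (nearest 3.35), Igkc 1394 CPM (nearest 171) and stood low for Nrp1 3.41 CPM (nearest 17.4).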

How the results depend on the processing

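DESeq2 called 1727 genes in all and 943 higher, against 1030 and 498 with edgeR; the cause was not tested. RLE factors, upper quartile factors, no filter on low counts, a filter of 10 CPM in 6 libraries, limma-voom, a fit of 14 and 20 weeks alone, curves on gene length and GC content and the removal of other cells' genes gave 849 to 1423 calls. With 1 library left out the calls were 702 to 1263, with 326 to 556 higher and 376 to 707 lower, lowest without replicate 4 of 14 weeks and highest without replicate 1 of 20 weeks. Replicate numbers did not pair the mice: same-numbered libraries correlated at -0.029 to 0.048 in their deviations from the age means, and a replicate block gave 962 calls, 438 higher and 524 lower. For the named genes, 2361 of 2466 values under other settings and 2452 of 2724 with 1 library left out kept their direction and their side of the threshold, 85 and 249 lost the call, 2 and 2 gained one, and 18 and 21 changed sign, all in genes that had not passed. Tmsb4x read -0.12 with gene length curve and -0.001 to 0.14 with 1 library left out. Cyba read -0.024 with gene length curve, -0.020 with GC content curve. Nfkbia read -0.028 with gene length curve. Klf4 read -1.01 to 0.900 with 1 library left out. Cxcr4 read -0.081 with gene length curve and -0.009 to 0.23 with 1 library left out. Ifit1 read 0.029 with RLE factors, 0.063 with upper quartile factors, 0.057 with 10 CPM in 6 libraries, 0.029 with DESeq2, 0.002 with only 14 and 20 weeks, 0.029 with replicate block, 0.047 with GC content curve and -0.17 to 0.21 with 1 library left out. Ifit3 read 0.029 with upper quartile factors, 0.025 with 10 CPM in 6 libraries, 0.014 with GC content curve and -0.195 to 0.25 with 1 library left out. Rsad2 read -0.15 with limma-voom and -0.14 to 0.29 with 1 library left out. Tlr13 read -0.014 with limma-voom, -0.014 with gene length curve and -0.087 to 0.14 with 1 library left out. Mki67 read -1.63 to 0.85 with 1 library left out. For the lists, 525 of 537 and 585 of 588 medians moved by less than the spread between mice; the 12 and 3 that moved more were those of NADPH oxidase, extracellular trap, Toll-like receptor, lectin receptor, Fc receptor, complement, actin and Ly6 genes.

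With 1 library left out, the difference in total counts, 20 minus 14 weeks, was -1611000 to -885900 (adjusted exact p 0.0379 to 0.341), that in the share of ribosomal protein genes 0.01735 to 0.03175 points (0.0152 to 0.247) and that in immunoglobulin genes and Jchain 0.2312 to 0.3511 points (0.00758 to 0.0606). The differences in summed CPM of NK cell (-1.854 to 2.576), basophil (-6.263 to 2.326), erythroid (-0.4136 to 1.246) and stromal markers (-1.677 to 5.79) changed sign. As mean log2 CPM of the tested markers, the B cell (1.617, adjusted exact p = 0.0747), T cell (-0.943, 0.209), monocyte and macrophage (0.503, 0.0545) and dendritic cell lists (2.858, 0.0545) no longer passed. The basophil and mast cell list did (-3.457, 0.00649), but Kit was its 1 tested marker. Its markers Mcpt8, Cpa3, Fcer1a, Ms4a2, Gata2 and Cd200r3, not tested for low counts, went the other way. Their medians were 0 at 14 weeks and 0.534 to 5.41 CPM at 20 weeks, and that of Prss34 was 0 at both. The platelet list (-0.4653), with Gp9 its 1 tested marker, and the stromal list (-0.1461) changed sign. On simulated counts, 18% of 100 genes changed 2-fold and 56% of 100 changed 4-fold were recovered, among 10104 genes. Under those settings many changes of those sizes were missed. The simulation changed fewer genes than were called here and gave each gene 1 spread for all ages. Its shares therefore need not hold for the real comparison.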

Other observations

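Libraries differed more from each other at 20 weeks. With 1 library per mouse, spread between mice and spread between libraries cannot be told apart. Total counts had an SD of 801808 at 14 weeks and 1382325 at 20 weeks, and genes with a count one of 617 and 1526. The part of these in the spread was not tested. The median SD of log2 CPM over the 6 mice was 0.51 at 14 weeks and 0.87 at 20 weeks (0.67 without replicate 3), and 79.3% of tested genes had the larger SD at 20 weeks (68.4% without replicate 3). Genes that fell had a median exon length of 5096 bases and those that rose 3466, against 4209 over all tested genes, and after a correction on length 860 of the 1030 calls were kept.

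The log2 CPM of Ltf and Il1b, a pair chosen after the values were seen, was correlated over mice within each age, and neither correlation passed after adjustment over the 2 ages. Over 6 mice of 14 weeks Pearson's r was -0.641 (exact permutation p = 0.178, adjusted 0.178) and Spearman's rho -0.657 (0.175, adjusted 0.242). Over 6 mice of 20 weeks r was -0.859 (exact permutation p = 0.0389, adjusted 0.0778) and rho -0.6 (0.242, adjusted 0.242). Without the 2 mice farthest from the median of Ltf, r was -0.566 and -0.758.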
